A study of Homo sapiens with 24 samples.

Results

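TCC-SUP is an established human line grown from a transitional cell carcinoma of the bladder. Its 3 untreated libraries, out of 24 in the series, are described here against the 9 untreated libraries of 3 other bladder cancer lines, T24, 5637 and CLS-439. The libraries enter by their labels, and the 3 other lines have equal weight. The label NT marks untreated cells. The other 12 libraries come from the same 4 lines after 75 uM mitomycin C (MMC), a DNA-crosslinking drug, given for 1 h, with RNA taken 15 h later. The treatment label of those libraries reads MCC, taken here for MMC, the drug that their protocol names. Poly(A) RNA was sequenced with a stranded kit. Each line stands for itself, since there is 1 line behind each name, and its 3 libraries, called biological replicates by the submitters and numbered 1, 3 and 4, measure the spread between cultures or libraries of that line. A difference between TCC-SUP and another line is therefore a difference between 2 lines and cannot be read as one between tumor types.

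Counted reads per untreated library lay between 22013754 and 23121939 in TCC-SUP, against 24150912 to 28821665 in T24, 21920170 to 23810260 in 5637 and 17103409 to 20863429 in CLS-439. On log2(CPM + 1), where CPM is the count scaled to a common library size with TMM factors, TCC-SUP libraries correlated with each other at 0.99 to 0.994 across genes. They correlated with T24 at 0.748 to 0.778, with 5637 at 0.685 to 0.719 and with CLS-439 at 0.519 to 0.528. The CLS-439 libraries stood apart in composition. Reads of mitochondrially encoded genes made up 4.326 to 5.1% of the total in TCC-SUP, against 3.215 to 4.876% in T24 and 5637 and 0.02384 to 0.02829% in CLS-439. Those of processed pseudogenes made up 0.1574 to 0.1895% in TCC-SUP, against 0.1557 to 0.2248% in T24 and 5637 and 2.903 to 3.049% in CLS-439. For CLS-439 what belongs to the line and what belongs to its libraries cannot be told apart, and the origin of these libraries was not tested. Counts over all genes are therefore also given without CLS-439.

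The urothelium is an epithelium, and its carcinoma cells usually keep keratins and desmosomes. The interstitial matrix around it is made by fibroblasts, which secrete fibrillar collagens, small leucine-rich proteoglycans that organize the fibrils, and glycoproteins such as periostin. Basement membrane, a different matrix, is built from type IV collagen, laminin and nidogen. Type I interferon signals through factors such as STAT2 and IRF9, which bind a short DNA element, the ISRE, in the promoters of antiviral genes.

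Of 19523 genes tested with edgeR, 7712 (39.5%) were called higher and 6021 (30.8%) lower in TCC-SUP than in the mean of the 3 other lines, at a Benjamini-Hochberg adjusted p under 0.05. Without CLS-439 the counts were 6545 higher and 5436 lower. All adjusted p-values below come from this quasi-likelihood test. The mean of the lines is taken on the log scale, so 606 of the 7712 genes called higher had a TCC-SUP mean CPM below the plain average of the other lines' means, while 0 of the 6021 called lower had one above it. A stricter count, used for the gene lists, asks that TCC-SUP be called in the same direction against T24, 5637 and CLS-439 in turn. It held 3376 genes (17.3%) higher than every other line and 2098 genes (10.7%) lower than every other line. Without the CLS-439 libraries the same count was 4248 higher and 3320 lower. By the same count, T24 was higher than every other line in 1688 genes and lower in 1458, 5637 in 2432 and 1902, and CLS-439 in 5636 and 4385.

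The 6 genes given as markers of TCC-SUP were higher in it than in the other lines by ratios of mean CPM between 13300 and 58800, and they encode secreted or surface proteins that fibroblasts or vessel-associated cells also make. COL1A2 encodes the alpha 2 chain of type I collagen. It had 4540, 3290 and 4210 CPM in the TCC-SUP libraries, against 0.0749, 0.22 and 0.216 CPM in T24, 0, 0 and 0.0437 CPM in 5637 and 0, 0.154 and 0 CPM in CLS-439. The TCC-SUP libraries held 262765 reads of COL1A2 and the 9 others together 17, a ratio of mean CPM of 50900. In bulk libraries such as these, fewer cells of a type and less RNA per cell cannot be told apart. CD36, a scavenger receptor that takes up fatty acids, had 1070, 720 and 684 CPM in TCC-SUP, against 0.0514 CPM or less in each of the 9 other libraries. Its 54114 reads stood against 3, a ratio of 52600 with a counting interval of 18000 to 255000 that covers counting error only. A2M, the broad protease inhibitor alpha-2-macroglobulin, had 676, 431 and 667 CPM in TCC-SUP, against at most 0.101 CPM elsewhere.

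Lumican and decorin are small leucine-rich proteoglycans that bind collagen fibrils, and their genes neighbour each other on chromosome 12. LUM had 847, 342 and 405 CPM in TCC-SUP, against at most 0.206 CPM in the 9 other libraries. DCN had 408, 185 and 234 CPM in TCC-SUP, and 1 read of it was counted in the 9 others, a ratio of 58800 with a counting interval of 10500 to 2320000. Both genes were lowest in replicate 3 and highest in replicate 1 of TCC-SUP, a spread that leaves the groups far apart. VCAM1, an adhesion receptor for leukocytes that endothelium shows under cytokines, had 102, 110 and 105 CPM in TCC-SUP, against 1 read in the 9 others together, a ratio of 21600 with a counting interval of 3870 to 852000. All 6 markers were called higher than every other line, and none of them would have passed the filter on low counts without TCC-SUP, so their difference was built into being tested.

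The VCAM1 promoter is shown because tandem NF-kB sites in it are a textbook control of this gene. The sequence is the 250 bases upstream of the RefSeq start, on GRCh38.p14 at chr1:100719492-100719741 (plus strand), 5′ to 3′. Capitals mark the 1 match to GGGNTTTCC on either strand, 62 to 54 bases upstream of the start.
VCAM1 promoter: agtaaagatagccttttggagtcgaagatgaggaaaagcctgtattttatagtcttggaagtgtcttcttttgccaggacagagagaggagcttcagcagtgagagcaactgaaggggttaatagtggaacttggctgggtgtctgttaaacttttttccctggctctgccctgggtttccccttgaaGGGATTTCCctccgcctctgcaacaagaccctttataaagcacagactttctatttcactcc
Such a match stood in 1.68% of 27305 promoters of the same length.

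**Figure D1:**
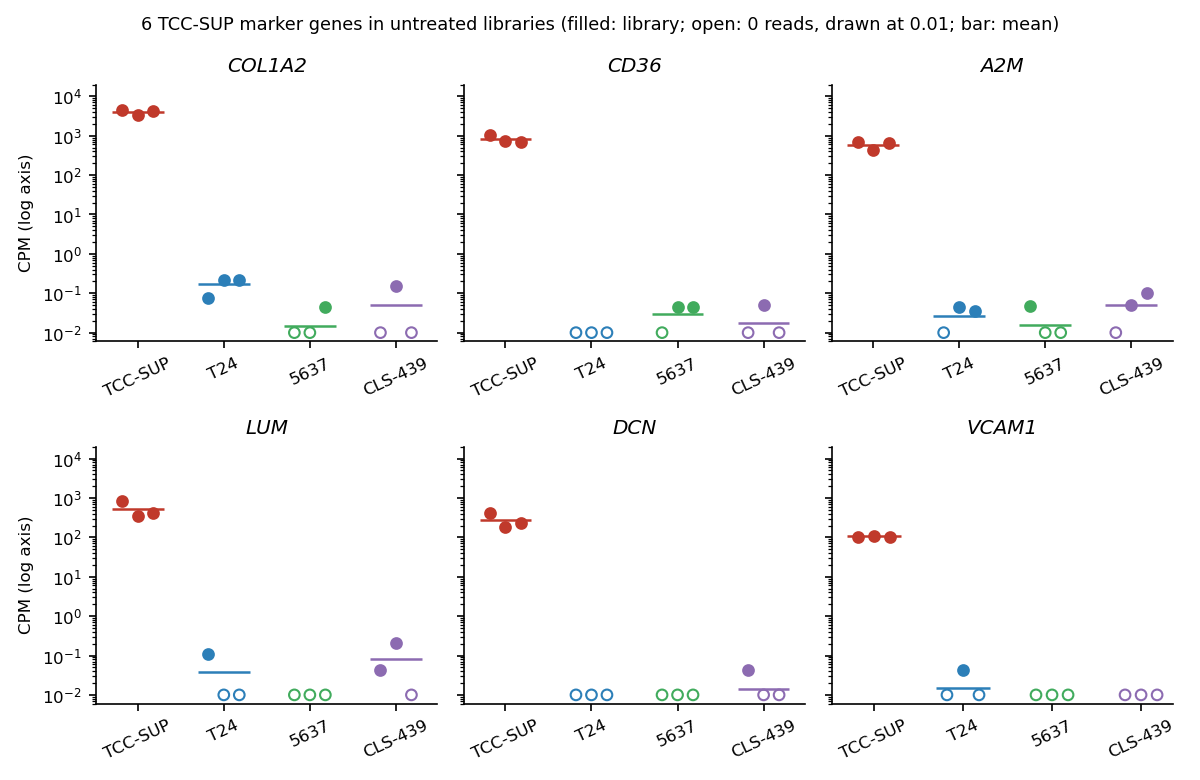
CPM (log axis) of the 6 markers in the 12 untreated libraries, with 1 point per library, a bar for the mean and open points for libraries with 0 reads, drawn at 0.01. In every panel the 3 TCC-SUP points lie above 50 CPM, and no point of T24, 5637 or CLS-439 reaches 1 CPM.

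Fibrillar collagens beyond COL1A2 were also high. Of 11 listed, 9 were tested, 5 were higher than every other line (COL1A1, COL1A2, COL3A1, COL5A2 and COL5A3) and 1 was lower (COL27A1). Of the 7 that passed the filter on the other lines alone, 3 were higher than every other line, against 17.3% of all genes. COL1A1, the alpha 1 chain of type I collagen, had 4610, 3500 and 4430 CPM in TCC-SUP, against 2.06, 1.67 and 1.26 CPM in T24, 30.2, 23.9 and 27.1 CPM in 5637 and 1470, 1730 and 1800 CPM in CLS-439. The groups did not overlap, and the edgeR difference was 1.33 ± 0.124 on the log2 scale against CLS-439, the nearest line (SE, adjusted p = 3.27e-09). CLS-439 thus held COL1A1 with almost no COL1A2, while TCC-SUP held both chains, at 426 CPM per kb of exon for COL1A1 and 360 CPM per kb for COL1A2.

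COL3A1, the collagen of reticular fibers, had 739, 433 and 534 CPM in TCC-SUP, against at most 0.412 CPM elsewhere. COL5A2, which nucleates type I fibrils, averaged 1850 ± 314 CPM in TCC-SUP, against 876 ± 70.1 CPM in T24, 19.4 ± 1.95 CPM in 5637 and 132 ± 24.8 CPM in CLS-439 (SD, n = 3 each). The edgeR difference was 1.08 ± 0.135 on the log2 scale against T24, the nearest line (SE, adjusted p = 8.82e-07). Its usual partner chain went the other way against CLS-439: COL5A1 averaged 0.47 ± 0.326 CPM in TCC-SUP, against 656 ± 18.4 CPM in CLS-439, and was below 1 CPM on average in T24 and 5637.

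All 9 tested small leucine-rich proteoglycans, out of 15 listed, were higher than every other line, against 17.3% of all genes. However, only 4 of them passed the filter on the other lines alone, and those 4 were among the 9. Besides LUM and DCN, biglycan (BGN) averaged 81.2 ± 14 CPM in TCC-SUP, against 0.262 ± 0.046 CPM in T24, 0 reads in 5637 and 37.4 ± 3.33 CPM in CLS-439. TSKU averaged 145 ± 13.3 CPM in TCC-SUP, against 55.5 ± 11.4 CPM in T24, 69.2 ± 7 CPM in 5637 and 11.8 ± 0.28 CPM in CLS-439. Members still at 0 reads in TCC-SUP numbered 4, so the family was present in part.

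Of 33 matrix glycoproteins tested, 12 were higher than every other line and 2 were lower, against 17.3% and 10.7% of all genes. Of the 31 that passed on the other lines alone, 10 were higher. Periostin (POSTN), a matrix protein of fibroblasts that binds integrins, had 855, 464 and 608 CPM in TCC-SUP, against at most 0.566 CPM in the 9 other libraries. Versican (VCAN), a large proteoglycan of provisional matrix, had 754, 840 and 739 CPM in TCC-SUP, against 0.717 to 11.4 CPM elsewhere. SPARC, a collagen-binding glycoprotein, averaged 2430 ± 474 CPM in TCC-SUP, against 356 ± 51.6 CPM in T24, 47.9 ± 3.84 CPM in 5637 and 669 ± 36.2 CPM in CLS-439. Thrombospondin 2 (THBS2) and fibrillin 1 (FBN1), the core of microfibrils, averaged 306 ± 40.3 and 703 ± 62.2 CPM in TCC-SUP, and their nearest line, T24, averaged 18.6 ± 2.01 and 330 ± 25.7 CPM. Fibronectin (FN1) did not share this: it averaged 3120 ± 153 CPM in TCC-SUP, below the 6520 ± 1540 CPM of T24 and above 5637 and CLS-439, which each averaged 1520 CPM.

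Of 29 enzymes and helpers of collagen processing tested, 9 were higher than every other line and 1 was lower. The shares over all genes were 17.3% and 10.7%. Of the 28 that passed on the other lines alone, 8 were higher. Lysyl oxidase (LOX), which crosslinks collagen, averaged 551 ± 139 CPM in TCC-SUP, against 149 ± 42.9 CPM in CLS-439, the nearest line. BMP1, which removes the C-terminal propeptide of procollagen, averaged 297 ± 20.8 CPM in TCC-SUP, against 82.5 ± 3.97 CPM in 5637, the nearest line. PCOLCE2, an enhancer of that cleavage, was the lower one, at 0.0605 ± 0.0524 CPM in TCC-SUP, against 5.65 ± 1.68 CPM in T24, 4.39 ± 0.52 CPM in 5637 and 70.6 ± 9.15 CPM in CLS-439.

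Matrix proteases and matrix receptors were counted next. Of 19 matrix metalloproteinases and their inhibitors tested, 10 were higher than every other line and 0 were lower. Over all genes the shares were 17.3% and 10.7%. MMP14, a membrane-bound collagenase, averaged 1100 ± 196 CPM in TCC-SUP, against 316 ± 30.6 CPM in T24, 628 ± 33.5 CPM in 5637 and 0.353 ± 0.229 CPM in CLS-439. The inhibitor TIMP3 averaged 1270 ± 137 CPM in TCC-SUP, against 311 ± 9.72 CPM in 5637, the nearest line. Of 21 integrins, 9 were higher than every other line and 1 was lower, against 17.3% and 10.7% of all genes. ITGA11, which with ITGB1 forms a fibroblast receptor for fibrillar collagen, had 303, 176 and 267 CPM in TCC-SUP, against at most 0.792 CPM in T24 and 5637 and 25.1, 16.7 and 16.2 CPM in CLS-439. DDR2, a receptor tyrosine kinase bound by fibrillar collagen, averaged 263 ± 47.2 CPM in TCC-SUP, against 0.992 ± 0.219 CPM in T24, 0.953 ± 0.295 CPM in 5637 and 3.19 ± 0.72 CPM in CLS-439.

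Type IV collagen and nidogen 1, which are parts of basement membranes, were low. COL4A1 and COL4A2, the 2 main chains of type IV collagen, were lower in TCC-SUP than in every other line. COL4A1 had 7, 4.75 and 8.27 CPM in TCC-SUP, against 264 to 369 CPM in T24, 440 to 501 CPM in 5637 and 666 to 733 CPM in CLS-439. The edgeR difference, TCC-SUP minus the other line, was -5.52 ± 0.172 on the log2 scale against T24, the nearest line (SE, adjusted p = 9.19e-16). COL4A2 had 11.4, 9.36 and 14.8 CPM in TCC-SUP, against 600 to 987 CPM in the 9 others. Nidogen 1 (NID1), which links laminin to type IV collagen, had 1.96, 1.32 and 1.8 CPM in TCC-SUP, against 130 to 270 CPM in the 9 others. COL4A5 averaged 0.0744 ± 0.129 CPM in TCC-SUP, with 5 reads in its 3 libraries, against 77.4 ± 9.43 CPM in T24, 96.6 ± 9.46 CPM in 5637 and 27 ± 4.82 CPM in CLS-439. Laminins were split against the mean of the lines: of 10 tested, 5 were higher and 5 were lower, against 39.5% and 30.8% of all genes. By the stricter count, LAMA2, LAMA4, LAMB1 and LAMC1 were higher than every other line and 0 were lower. The shares over all genes were 17.3% and 10.7%. LAMA4, the chain of vessel and muscle basement membranes, averaged 617 ± 90.9 CPM in TCC-SUP, against 50.7 ± 3.02 CPM in 5637, the nearest line.

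**Figure D2:**
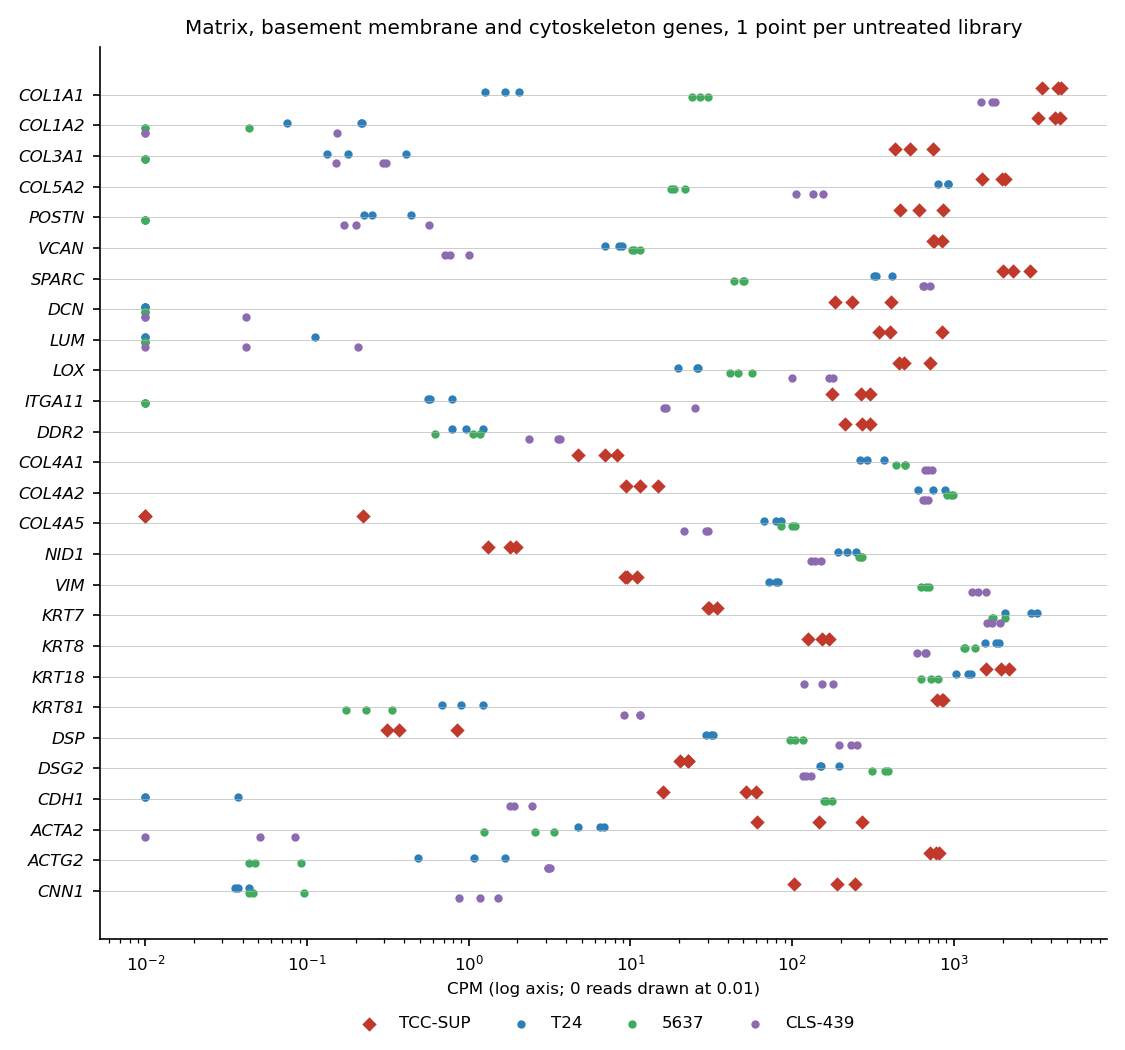
CPM (log axis) of 27 matrix, basement membrane and cytoskeleton genes, 1 row per gene and 1 point per untreated library, with TCC-SUP as diamonds and libraries with 0 reads drawn at 0.01. The diamonds lie to the right for collagens I and III, POSTN, DCN and LUM, and to the left for COL4A1, COL4A2, COL4A5, NID1, VIM, KRT7 and DSP.

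The main mesenchymal filament did not go with the matrix genes. Vimentin (VIM), the intermediate filament of mesenchymal cells, had 9.24, 11 and 9.47 CPM in TCC-SUP, against 81.5, 72.4 and 79.6 CPM in T24, 623, 697 and 674 CPM in 5637 and 1290, 1570 and 1400 CPM in CLS-439. TCC-SUP was the lowest of the 4 lines, and the edgeR difference was -2.98 ± 0.112 on the log2 scale against T24, the nearest line (SE, adjusted p = 1.45e-15). Of 15 mesenchymal markers tested, 6 were higher than every other line and 2, VIM and AXL, were lower. Over all genes the shares were 17.3% and 10.7%. THY1, a surface glycoprotein of fibroblasts, averaged 513 ± 26.2 CPM in TCC-SUP, against 25 ± 3.91 CPM in 5637, the nearest line. S100A4, a calcium-binding protein also called fibroblast-specific protein, averaged 425 ± 24.4 CPM in TCC-SUP, against 29 ± 1.15 CPM in CLS-439, the nearest line. Of 10 regulators of epithelial-mesenchymal transition tested, 5 were higher than every other line, against 17.3% of all genes. Among them TWIST1 averaged 26.5 ± 1.31 CPM in TCC-SUP, against 9.98 ± 0.484 CPM in 5637 and under 0.05 CPM in T24 and CLS-439. ZEB2 averaged 65.3 ± 1.65 CPM in TCC-SUP, against 24.6 ± 6 CPM in T24, the nearest line.

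Smooth muscle actins and calponin were high. ACTG2, the gamma actin of visceral smooth muscle, had 775, 808 and 716 CPM in TCC-SUP, against 0.0437 to 3.19 CPM in the 9 others. ACTA2, the vascular smooth muscle actin of myofibroblasts, had 271, 60.7 and 147 CPM in TCC-SUP, against 0 to 6.82 CPM in the 9 others. CNN1 (calponin) had 245, 102 and 190 CPM in TCC-SUP, against at most 1.51 CPM elsewhere. Defining markers of differentiated muscle were near 0: MYH11 had 4 reads over the 3 TCC-SUP libraries, and DES averaged 0.335 ± 0.0883 CPM in TCC-SUP, against 5.9 ± 0.464 CPM in CLS-439 and 0 reads in T24 and 5637. Over the list of pericyte and smooth muscle markers, 6 of 9 tested were higher than every other line, against 17.3% of all genes. Its summed level was 1870 to 2540 CPM in TCC-SUP, against 165 to 1390 CPM in the 9 other libraries.

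Single keratins stood far apart in either direction. KRT7, a keratin of simple and urothelial epithelium, had 30.3, 30.6 and 34.3 CPM in TCC-SUP, against 1610 to 3260 CPM in the 9 others. KRT8 averaged 149 ± 22.6 CPM in TCC-SUP, against 1760 ± 177 CPM in T24, 1230 ± 112 CPM in 5637 and 640 ± 44.5 CPM in CLS-439. Its filament partner KRT18 went the other way, with 1900 ± 308 CPM in TCC-SUP, against 1180 ± 129 CPM in T24, 717 ± 86.6 CPM in 5637 and 150 ± 29.6 CPM in CLS-439. The hair keratin KRT81 had 784, 846 and 851 CPM in TCC-SUP, against 0.175 to 11.5 CPM in the 9 others. Reads of KRT81 and KRT86 may be shared, since the hair keratins are close copies. Of 19 keratins tested, 4 were higher than every other line (KRT18, KRT80, KRT81 and KRT86) and 3 were lower (KRT7, KRT8 and KRT17), against 17.3% and 10.7% of all genes.

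Desmoplakin and desmoglein 2, both parts of desmosomes, were low. Desmoplakin (DSP), which ties keratin filaments to desmosomes, had 0.312, 0.846 and 0.369 CPM in TCC-SUP, against 29.5, 31.6 and 32.4 CPM in T24, 96.5, 104 and 116 CPM in 5637 and 194, 250 and 231 CPM in CLS-439. Desmoglein 2 (DSG2) averaged 21.9 ± 1.39 CPM in TCC-SUP, against 123 ± 6.53 CPM in CLS-439, the nearest line. E-cadherin (CDH1) was not low throughout: it had 60, 15.8 and 51.5 CPM in TCC-SUP, against 157, 161 and 177 CPM in 5637, 2.45, 1.9 and 1.81 CPM in CLS-439 and at most 0.0375 CPM in T24. It was called higher than the mean on the log scale, but as a ratio of mean CPM its log2 value was -0.39. Of 37 epithelial junction and identity genes tested, 1 was higher than every other line (OCLN, a tight junction protein) and 5 were lower (DSP, DSG2, PKP3, TJP1 and SPINT2), against 17.3% and 10.7% of all genes, and the median log2 fold change of the list to the mean of the lines was 0.09. Without T24, itself low in many of these genes, 13 were lower, without CLS-439, 9 were lower, and without 5637, 12 were higher. In the fit of all 24 libraries 3 were lower, and without TCC-SUP replicate 3, 2 were higher.

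Of 20 luminal urothelial genes tested, 4 were higher than every other line and 4 were lower, against 17.3% and 10.7% of all genes. GATA3, a transcription factor of urothelium, averaged 56.1 ± 4.78 CPM in TCC-SUP, against 28.3 ± 8.99 CPM in T24, 32.1 ± 2.53 CPM in 5637 and 1.94 ± 0.473 CPM in CLS-439. The uroplakin genes UPK1A and UPK3A, which coat the surface of the bladder, had 0 reads in TCC-SUP. Of 21 basal and squamous genes tested, 0 were higher than every other line and 5 were lower, against 17.3% and 10.7% of all genes. Without T24, 10 were lower, and without CLS-439, 8 were lower and 1 was higher. Without 5637, 2 were higher. SFN, the 14-3-3 protein of stratified epithelium, averaged 1.58 ± 0.525 CPM in TCC-SUP, against 298 ± 30.4 CPM in T24, 381 ± 12.4 CPM in 5637 and 11.4 ± 2.2 CPM in CLS-439. S100A2 averaged 19.7 ± 1.88 CPM in TCC-SUP, against 141 ± 3.37 CPM in CLS-439, the nearest line.

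Marker lists of other cell types were read beside these results. Of 10 fibroblast markers, 9 were higher than every other line, against 17.3% of all genes. Of the 5 that passed the filter on the other lines alone, 4 were higher. The list also holds markers given for TCC-SUP, COL1A2 among them, so its count and sum are not separate from that choice. The list had a summed level of 8770 to 12700 CPM in TCC-SUP, against 2.77 to 1830 CPM in the 9 others. The exception was PDGFRA, at 8.37 ± 2.05 CPM in TCC-SUP and 8.84 ± 1.72 CPM in CLS-439. Of 8 endothelial markers tested, 2 were higher than every other line and 0 were lower, against 17.3% and 10.7% of all genes. They summed to 45.4 to 62.8 CPM in TCC-SUP, against 1.95 to 18.1 CPM elsewhere. Nearly all of it was the receptor TEK at 51.4 ± 9.03 CPM, while CLDN5 and EMCN had 0 reads. Of 5 macrophage and leukocyte markers tested, 2 were higher than every other line and 0 were lower, beside the same shares. They summed to 34.7 to 41.4 CPM in TCC-SUP, against 0.369 to 11 CPM elsewhere. Of that, PTPRC, the leukocyte phosphatase CD45, held 29.5, 27.7 and 30.3 CPM in TCC-SUP, against at most 0.151 CPM elsewhere, while TYROBP, CD3E, CD2 and MS4A1 had 0 reads. Of 7 adipocyte markers tested, 0 were higher and 0 were lower than every other line, against 17.3% and 10.7% of all genes. They summed to 103 to 110 CPM in TCC-SUP, against 48.2 to 238 CPM elsewhere, while ADIPOQ and LEP had 0 reads. Of 6 neuroendocrine markers tested, 3 were higher than every other line, against 17.3% of all genes. Their list had a summed level of 753 to 888 CPM in TCC-SUP, against 20.5 to 241 CPM elsewhere. SCG2 (secretogranin II), a protein of secretory granules, had 226, 412 and 276 CPM in TCC-SUP, against 0.0514 to 3.63 CPM in the 9 others. CHGA and NEUROD1 had 0 reads in TCC-SUP, while UCHL1, a neuronal deubiquitinase, averaged 369 ± 27 CPM in TCC-SUP, against 180 ± 14.4 CPM in CLS-439 and under 0.05 CPM in T24 and 5637. The part of other cells in the matrix results was not tested; the fibroblast list is itself made of matrix genes in large part.

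Interferon-stimulated genes were higher in TCC-SUP almost throughout: of 29 tested, 28 were higher than the mean of the lines and 25 were higher than every other line, against 39.5% and 17.3% of all genes. All 29 passed the filter on the other lines alone. The median log2 fold change to the mean of the lines was 4.29 over the list, against 0.00125 over all genes tested. The promoters of 4 of these genes are shown because their induction runs through the ISRE. Each is the 250 bases upstream of the first RefSeq start listed, on GRCh38.p14, 5′ to 3′ along the gene's strand. Capitals mark the core of the element, GAAA followed by any 2 bases and a second GAAA, on either strand. Each promoter holds 2 matches, which overlap in ISG15 and BST2. IFIT1 lies at chr10:89392373-89392622 (plus strand), IFIT3 at chr10:89327747-89327996 (plus), ISG15 at chr1:1013247-1013496 (plus) and BST2 at chr19:17405631-17405880 (minus).
IFIT1 promoter: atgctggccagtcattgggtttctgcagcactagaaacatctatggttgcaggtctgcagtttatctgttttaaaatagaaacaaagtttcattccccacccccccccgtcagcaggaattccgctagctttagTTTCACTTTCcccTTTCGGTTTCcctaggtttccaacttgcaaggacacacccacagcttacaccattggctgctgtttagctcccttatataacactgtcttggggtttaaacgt
IFIT3 promoter: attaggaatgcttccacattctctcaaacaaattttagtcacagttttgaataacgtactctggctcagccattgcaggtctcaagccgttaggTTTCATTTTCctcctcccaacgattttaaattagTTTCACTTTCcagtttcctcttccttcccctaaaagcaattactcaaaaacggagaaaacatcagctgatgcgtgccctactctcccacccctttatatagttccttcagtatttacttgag
ISG15 promoter: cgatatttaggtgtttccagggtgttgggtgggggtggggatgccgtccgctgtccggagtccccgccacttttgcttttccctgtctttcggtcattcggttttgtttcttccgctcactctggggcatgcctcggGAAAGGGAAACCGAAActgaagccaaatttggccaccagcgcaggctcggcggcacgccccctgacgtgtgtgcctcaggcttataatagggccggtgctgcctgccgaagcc
BST2 promoter: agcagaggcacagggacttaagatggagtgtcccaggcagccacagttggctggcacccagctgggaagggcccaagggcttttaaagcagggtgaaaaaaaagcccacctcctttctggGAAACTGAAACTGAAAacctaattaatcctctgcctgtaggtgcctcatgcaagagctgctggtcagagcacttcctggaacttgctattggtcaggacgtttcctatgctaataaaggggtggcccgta

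The matches lay between 156 and 94 bases upstream of these 4 starts. Of 21 interferon-stimulated genes with a promoter in the RefSeq table, 14 (66.7%) held the core, against 3.07% of 27305 promoters. Among protein-coding genes tested the share was 4.31% of 1951 promoters of genes higher than every other line, against 1.82% of 1596 of genes lower and 2.42% of all 11547. The higher genes include members of the list. Other features differed too: TATAAA stood in 8.2% of the higher, 3.82% of the lower and 5.87% of all, and the median CpG was 17, 23 and 20. The list was assembled from genes known to answer interferon, so its own share describes the list and is no result of these libraries. Of the list, 12 of the 14 genes with a match and 7 of the 7 without one were higher than every other line.

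IFIT1, which binds RNA lacking the host cap methylation, had 217, 129 and 325 CPM in TCC-SUP, against 50.7, 36.4 and 21.5 CPM in T24, 0.334, 0.138 and 0.0873 CPM in 5637 and 4.56, 2.52 and 3.42 CPM in CLS-439. IFIT3, its partner, had 190, 196 and 329 CPM in TCC-SUP, against 2.86 to 21 CPM in the 9 others. RSAD2 (viperin), an antiviral enzyme, had 82.2, 62.8 and 127 CPM in TCC-SUP, against 0 to 1.41 CPM in the 9 others. In these 3 genes the TCC-SUP libraries were above the others without overlap and replicate 4 was highest, while replicate 3 was lowest in IFIT1 and RSAD2 and replicate 1 in IFIT3.

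MX1, a GTPase that traps viral capsids, had 254, 146 and 551 CPM in TCC-SUP, against 3.74 to 28.8 CPM elsewhere. OASL had 300, 226 and 407 CPM in TCC-SUP, against 44.9, 28.2 and 14.3 CPM in T24 and at most 0.103 CPM in 5637 and CLS-439. T24 was the nearest line for many members. BST2 (tetherin), which holds budding virions at the surface, averaged 222 ± 73.1 CPM in TCC-SUP, against 118 ± 22.4 CPM in T24, 0 reads in 5637 and 2.3 ± 1.05 CPM in CLS-439. ISG15, a ubiquitin-like modifier, had 133, 77.7 and 175 CPM in TCC-SUP, against 80.3, 61.5 and 43.8 CPM in T24, so TCC-SUP and T24 overlapped although the call held. IFI27 averaged 101 ± 26.9 CPM in TCC-SUP, against 121 ± 51 CPM in T24, and was not called against that line.

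The order of the TCC-SUP replicates was nearly the same through the list: replicate 3 was lowest in 28 of 29 genes and replicate 4 highest in 29 of 29. The summed level was 4320 CPM in replicate 1, 3180 CPM in replicate 3 and 6260 CPM in replicate 4 of TCC-SUP, against 1230 to 1750 CPM in T24, 399 to 412 CPM in 5637 and 812 to 881 CPM in CLS-439. With any 1 TCC-SUP library left out, 24 or 25 members were higher than every other line. The regulator IRF9 averaged 7.42 ± 2.5 CPM in TCC-SUP, against 3.88 ± 0.467 CPM in T24, the nearest line. The RNA sensors DDX58 (RIG-I) and IFIH1 (MDA5) averaged 83.2 ± 21 and 32.4 ± 11.7 CPM in TCC-SUP, and both were higher than every other line.

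**Figure D3:**
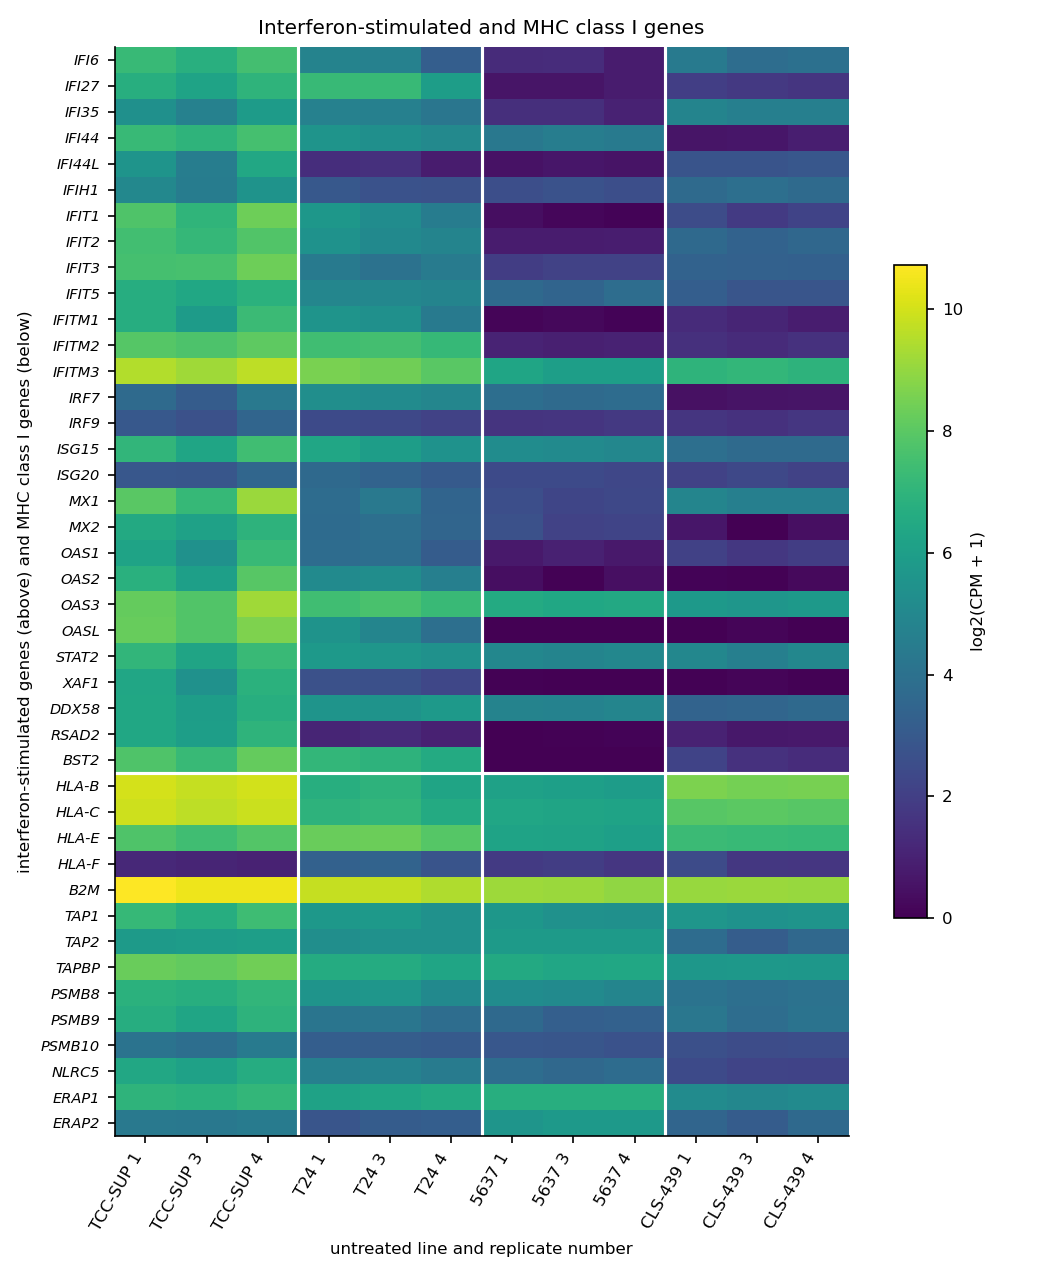
Heat map of log2(CPM + 1) for 28 of the 29 interferon-stimulated genes (above the white line) and 14 of the 15 MHC class I genes (below it) in the 12 untreated libraries, with TCC-SUP columns at the left. TCC-SUP columns are bright over most rows, and among them replicate 3 is the dimmest and replicate 4 the brightest in the interferon rows.

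MHC class I genes, which present peptides to T cells and answer interferon too, were also high. Of 15 tested, 11 were higher than every other line and 1 was lower, against 17.3% and 10.7% of all genes. All 15 passed on the other lines alone. HLA-B had 1060, 892 and 1020 CPM in TCC-SUP, against 105, 120 and 76.6 CPM in T24, 70.1, 66.4 and 59.5 CPM in 5637 and 396, 363 and 373 CPM in CLS-439. These genes are polymorphic and close copies of each other, so their counts depend on how well each line's alleles match the reference. Beta-2-microglobulin (B2M), the invariant light chain, is not polymorphic in that way, and averaged 1500 ± 169 CPM in TCC-SUP, against 816 ± 95.7 CPM in T24, the nearest line. PSMB9, a subunit of the immunoproteasome, averaged 99.9 ± 21 CPM in TCC-SUP, against 15.9 ± 2.25 CPM in T24, 9.83 ± 1.76 CPM in 5637 and 15.9 ± 2.43 CPM in CLS-439. NLRC5, the transcriptional activator of class I genes, averaged 84.2 ± 14.7 CPM in TCC-SUP, against 24.2 ± 2.51 CPM in T24, the nearest line. HLA-F was the lower one, at 1.19 ± 0.169 CPM in TCC-SUP, against 2.52 ± 0.294 CPM in 5637, the nearest line.

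Among NF-kB and cytokine genes, the neutrophil chemokines CXCL8 and CXCL1 were low at the same time. CXCL8 (interleukin 8), which draws neutrophils, had 0.0892, 0.376 and 0.647 CPM in TCC-SUP, against 155, 177 and 205 CPM in T24, 391, 305 and 298 CPM in 5637 and 0.886, 1.95 and 1.26 CPM in CLS-439. CXCL1, a ligand of the same receptor, had 3 reads over the 3 TCC-SUP libraries and averaged 0.0462 ± 0.08 CPM, against 221 ± 12.4 CPM in T24, 274 ± 57.8 CPM in 5637 and 0.294 ± 0.108 CPM in CLS-439. CLS-439 was thus nearly as low as TCC-SUP in both. Of 26 NF-kB and cytokine genes tested, 4 were higher than every other line (CCL2, CCL5, CSF1 and TNFAIP2) and 6 were lower (CXCL1, CXCL2, CXCL3, CXCL8, IL11 and TNFAIP3). The shares over all genes were 17.3% and 10.7%. Without CLS-439, 13 were lower, and without 5637, 7 were higher. CCL5, a T cell chemokine, averaged 41.6 ± 9.64 CPM in TCC-SUP, against 4.82 ± 2.38 CPM in T24 and 0 reads in 5637 and CLS-439. CSF1, the macrophage growth factor, averaged 164 ± 28.9 CPM in TCC-SUP, against 37.3 ± 4.49 CPM in CLS-439, the nearest line. Of 20 complement genes tested, 9 were higher than every other line and 1 was lower, against 17.3% and 10.7% of all genes. The proteases that start the classical pathway, C1R and C1S, averaged 157 ± 27.5 and 169 ± 35.9 CPM in TCC-SUP, against at most 9.86 and 3.84 CPM in the 9 others.

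Of 39 receptor tyrosine kinases tested, 9 were higher than every other line and 7 were lower, against 17.3% and 10.7% of all genes. FGFR1 averaged 239 ± 18.3 CPM in TCC-SUP, against 171 ± 12 CPM in CLS-439, the nearest line, and PDGFRB, a receptor of pericytes and fibroblasts, had 118, 46.2 and 92.5 CPM in TCC-SUP, against 27.4, 20.1 and 24 CPM in CLS-439. ERBB2 averaged 66.8 ± 6.26 CPM in TCC-SUP, against 136 ± 23.6 CPM in T24, 126 ± 6.5 CPM in 5637 and 159 ± 19.8 CPM in CLS-439, and ERBB3 was lower too. The EGF receptor ligands TGFA and HBEGF averaged 16.1 ± 2.87 and 15.5 ± 5.46 CPM in TCC-SUP, and both were lower than every other line. TGFBR2, the binding chain of the TGF-beta receptor, averaged 22.1 ± 6.35 CPM in TCC-SUP, against 57.4 ± 4.71 CPM in CLS-439, the nearest line.

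Of 20 IGF axis genes tested, 8 were higher than every other line and 2 were lower (IGF2 and IGF2BP2). The shares over all genes were 17.3% and 10.7%. IGFBP5, an IGF-binding protein of mesenchymal cells, had 2450, 2360 and 2360 CPM in TCC-SUP, against 145, 237 and 190 CPM in T24, 0.143, 0.738 and 0.349 CPM in 5637 and 26.9, 18.8 and 18.2 CPM in CLS-439. IGF2, a fetal growth factor, had 0 reads in TCC-SUP, against 10.4 ± 0.662 CPM in 5637. The imprinted genes MEST and DIRAS3 averaged 623 ± 98.2 and 195 ± 47.4 CPM in TCC-SUP, against at most 29.8 and 0.566 CPM in the 9 others. WNT5A, a ligand of noncanonical WNT signaling, averaged 201 ± 16.2 CPM in TCC-SUP, against 87.7 ± 14 CPM in 5637, the nearest line. TCF7L1, a repressor of WNT targets, averaged 0.0906 ± 0.0761 CPM in TCC-SUP, against 10.6 ± 1.36 CPM in T24, 37.7 ± 2.62 CPM in 5637 and 78.5 ± 4.78 CPM in CLS-439.

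Among HOX genes, which record position along the body axis, those at the 5′ end of the HOXC cluster were high. HOXC10 averaged 15.2 ± 1.15 CPM in TCC-SUP, against 3.44 ± 0.359 CPM in CLS-439, the nearest by level, and HOXC13 averaged 20.1 ± 1.89 CPM in TCC-SUP, against 1.44 ± 0.47 CPM there. HOXC12 averaged 5.05 ± 1.79 CPM in TCC-SUP and had 0 reads in the 9 other libraries, so that it was at least 342-fold higher against a floor of 3 counts over that group. HOXA13 was low, at 0.292 ± 0.101 CPM in TCC-SUP, against 0.894 ± 0.217 CPM in 5637, the nearest line. Of 36 HOX genes tested, 7 were higher than every other line and 3 were lower, against 17.3% and 10.7% of all genes, so the family as a whole stood near those shares.

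Of 28 genes of lipid uptake and storage tested, CD36 among them, 8 were higher than every other line and 4 were lower, against 17.3% and 10.7% of all genes. The lipid droplet protein PLIN4 averaged 38.6 ± 9.33 CPM in TCC-SUP, against 0.97 ± 0.192 CPM in CLS-439 and 0 reads in T24 and 5637. PLIN2, which coats droplets in most cells, had 126, 196 and 161 CPM in TCC-SUP, against 123, 137 and 131 CPM in 5637, with overlap between these lines. FABP5, a carrier of fatty acids in epithelium, averaged 7.11 ± 1.15 CPM in TCC-SUP, against 24.7 ± 2.24 CPM in CLS-439, the nearest line. ACSL1, which activates long-chain fatty acids, averaged 1.6 ± 0.494 CPM in TCC-SUP, against 7.31 ± 0.189 CPM in 5637, the nearest line.

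Before any drug was given, several genes that act on MMC or on oxidants stood higher. MMC must be reduced to bind DNA, and NQO1 is an enzyme that does this. NQO1 had 1060, 768 and 1170 CPM in TCC-SUP, against 522, 554 and 591 CPM in T24, 225, 248 and 225 CPM in 5637 and 239, 272 and 282 CPM in CLS-439, without overlap. Of 14 genes for mitomycin-reducing enzymes and drug efflux pumps tested, 6 were higher than every other line (NQO1, AKR1B10, ABCC1, ABCC2, ABCC3 and ABCG2) and 0 were lower. Over all genes the shares were 17.3% and 10.7%. The pump ABCG2 averaged 50.3 ± 4.54 CPM in TCC-SUP, against 6.74 ± 0.553 CPM in 5637, the nearest line. Of 35 genes of the NRF2 antioxidant pathway and glutathione, 15 were higher than every other line and 4 were lower. By the same count, 17.3% and 10.7% of all genes were so called. With any 1 TCC-SUP library left out 2 of the 35 were lower. This also held with T24 replicate 1 or CLS-439 replicate 4 left out and without CLS-439 altogether. TXNRD1 (thioredoxin reductase) averaged 1530 ± 219 CPM in TCC-SUP, against 652 ± 139 CPM in T24, the nearest line. The aldo-keto reductase AKR1B10 had 163, 66.4 and 197 CPM in TCC-SUP, against at most 2.88 CPM elsewhere. AKR1C1 and AKR1C3 averaged 154 ± 21 and 120 ± 37.5 CPM in TCC-SUP, and their reads may be shared, since they are close copies. Not every target followed: GCLM averaged 64 ± 4.52 CPM in TCC-SUP, against 72.8 ± 8.19 CPM in T24, and GSTP1 was lower than every other line at 243 ± 18.3 CPM.

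Of 28 G2 and mitosis genes tested, 7 were lower than every other line and 0 were higher, against 10.7% and 17.3% of all genes. With T24 replicate 4 left out 1 was higher, and without T24 altogether 4 were higher. CCNA2 (cyclin A2) averaged 64.6 ± 2.88 CPM in TCC-SUP, against 90.4 ± 3.76 CPM in 5637, the nearest line, and AURKB averaged 70.2 ± 3.97 CPM in TCC-SUP, against 90.5 ± 6.78 CPM in CLS-439, the nearest line. MKI67 averaged 824 ± 131 CPM in TCC-SUP, within the range of the other lines' means. The tumor suppressor RB1 averaged 15.3 ± 2.69 CPM in TCC-SUP, between 4.53 ± 0.879 CPM in 5637 and the 124 ± 12.3 and 147 ± 1.82 CPM of T24 and CLS-439. The CDK inhibitors CDKN2A and CDKN2B averaged 207 ± 17.4 and 72 ± 26.8 CPM in TCC-SUP, against 146 ± 2.76 CPM in 5637 for CDKN2A and 25.6 ± 2.07 CPM in CLS-439 for CDKN2B, the nearest lines. MDM2, the p53 ligase, averaged 40.7 ± 1.02 CPM in TCC-SUP, against 50.5 ± 3.17 CPM in CLS-439, the nearest line.

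Cancer-testis genes, which are X-linked for the most part and normally kept to germ cells, summed to 709 to 891 CPM in TCC-SUP, against 0.0422 to 8.24 CPM in the 9 other libraries. Of 32 listed, 16 were tested and 16 were higher than every other line, against 17.3% of all genes. However, only 3 passed the filter on the other lines alone. SPANXB1, a sperm nuclear protein, had 507, 328 and 459 CPM in TCC-SUP, against at most 0.619 CPM elsewhere. Per kb of exon, and with mitochondrially encoded genes left out, it was among the 10 highest genes of TCC-SUP, at 919 CPM per kb, beside ACTB at 3050, FTH1 at 2490, TMSB10 at 1990 and GAPDH at 1540 CPM per kb. MAGEC1 and MAGEC2 averaged 53 ± 4.61 and 68.8 ± 4.29 CPM in TCC-SUP, and PAGE5 averaged 68.6 ± 2.15 CPM in TCC-SUP with 0 reads elsewhere. Members of the SPANX and MAGE families are near-identical copies, so the split of reads among them is uncertain.

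**Figure D4:**
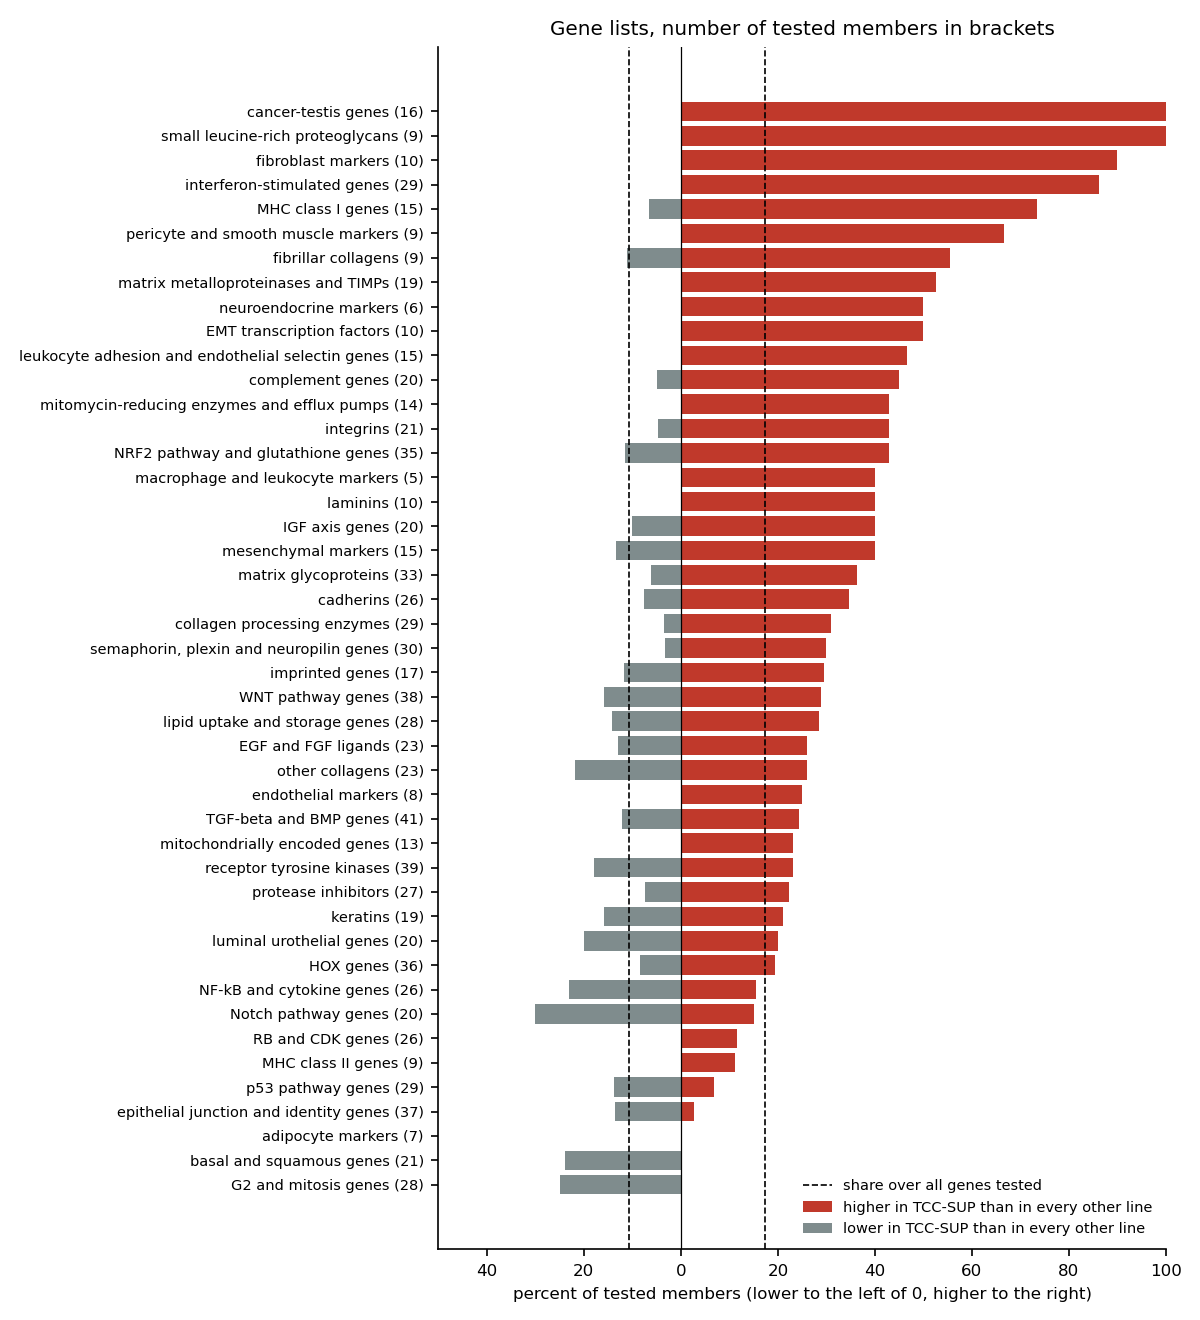
Percent of the tested members of 45 gene lists that were higher (right of 0) or lower (left of 0) in TCC-SUP than in every other line, with the number tested in brackets and dashed lines at the shares over all genes, 17.3% and 10.7%. Members that passed the filter only through TCC-SUP, such as most cancer-testis genes and small leucine-rich proteoglycans, had to lie to the right. By contrast, 5 of 10 fibroblast markers and all 29 interferon-stimulated genes passed on the other lines alone.

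Among protein-coding genes with an ordinary symbol, the 15 that stood highest above their nearest line were, besides the markers, PAGE5, UGT1A8, TMEM196, NKX2-2, GNAT3, CADM3, LRRC17, NDN and SSX1. UGT1A8, a glucuronidation enzyme, had 67.4, 37.2 and 69.4 CPM in TCC-SUP and 0 reads in the 9 others, at least 3930-fold higher. Its last exons are shared with 8 other UGT1A genes, so the reads cannot be given to UGT1A8 alone. NKX2-2, a homeobox factor of neural and pancreatic development, had 21.5, 18.7 and 24.5 CPM in TCC-SUP and 0 reads elsewhere, at least 1460-fold higher. LRRC17 had 139, 138 and 121 CPM in TCC-SUP, against 5 reads elsewhere, and lies inside FBXL13. GNAT3, a taste receptor G protein, had 22.1, 15.7 and 16.6 CPM in TCC-SUP and lies within CD36 on the other strand, so without a stated strand setting its reads cannot be told apart from those of CD36.

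The 15 that stood lowest were DZIP1, CHST10, OAT, PDLIM4, TNFRSF10D, ALDH7A1, CELSR1, PRICKLE3, CENPV, COL4A5, CDH13, PCDHGC3, TFAP2C, HPS1 and LPIN3. OAT, the mitochondrial ornithine aminotransferase that most tissues express, had 1 read in the 3 TCC-SUP libraries, against 108, 116 and 116 CPM in T24, 52, 48.9 and 50 CPM in 5637 and 109, 108 and 113 CPM in CLS-439. The ratio of the other lines to TCC-SUP was 5930, with a counting interval of 1060 to 234000. CHST10, which adds sulfate to the HNK-1 carbohydrate, had 0 reads in TCC-SUP and 5950 in the 9 others, at least 636-fold lower. DZIP1, a protein of the ciliary base, had 0 reads in TCC-SUP and 11800 in the others, at least 1230-fold lower. ALDH7A1, an aldehyde dehydrogenase of lysine breakdown, had 4 reads in TCC-SUP, against means of 64.6 CPM in T24, 29.5 CPM in 5637 and 91.5 CPM in CLS-439. TFAP2C, a transcription factor of epithelium, had 3 reads in TCC-SUP, against means of 30.9 CPM in T24, 54.5 CPM in 5637 and 11 CPM in CLS-439. CDH13, an anchored cadherin, had 10 reads in TCC-SUP, against 45.1 to 99.3 CPM in the 9 others.

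Genes on or off in a single line were then counted. Protein-coding genes at 10 CPM or more in 1 line with 3 reads or fewer in the 9 libraries of the others numbered 22 for TCC-SUP, against 0 for T24, 8 for 5637 and 30 for CLS-439. The reverse, 3 reads or fewer in 1 line and 10 CPM or more in each of the others, held for 7 genes in TCC-SUP, against 3 in T24, 2 in 5637 and 26 in CLS-439. Without CLS-439 the counts were 61 on and 18 off for TCC-SUP, against 9 and 19 for T24 and 24 and 8 for 5637. CpG was counted in the promoters of both sets, and the difference was not tested. The 19 promoters found for the on genes of TCC-SUP held a median of 6 CpG in 250 bases (range 0 to 30), and the 5 found for the off genes a median of 27 (range 18 to 33), against a median of 20 over all tested genes. Both sets were picked by opposite rules on the level in the other lines. The on and off genes of T24, 5637 and CLS-439 were not scanned, so the difference cannot be read as particular to TCC-SUP.

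The OAT promoter is shown as an example of the second kind, next to the VCAM1 promoter above with its 2 CpG. It lies on GRCh38.p14 at chr10:124418924-124419173 (minus strand), is given 5′ to 3′, and has its 27 CpG in capitals.
OAT promoter: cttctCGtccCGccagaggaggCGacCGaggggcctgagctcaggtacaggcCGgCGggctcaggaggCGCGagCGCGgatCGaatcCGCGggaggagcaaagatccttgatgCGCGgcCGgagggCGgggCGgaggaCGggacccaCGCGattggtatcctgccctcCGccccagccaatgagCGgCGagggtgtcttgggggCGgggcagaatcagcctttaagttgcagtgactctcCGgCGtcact

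Calls were uneven along the genome. On chromosome 16, 62.2% of 871 genes tested were called higher than the mean and 11.3% lower, against 39.5% and 30.8% over all genes. The median log2 fold change of its genes was 0.58 to the mean, 0.23 to T24, 0.84 to 5637 and 0.49 to CLS-439, and without CLS-439 the share called higher was 66%. Chromosomes 7 and 12 also leaned higher, with 52.5% and 52% called higher, but the median of chromosome 7 was 0 to 5637. Chromosomes 2 and 4 leaned lower, with 48.9% and 46.7% called lower and medians of -0.47 and -0.53. For chromosome 2 the median was -0.17 to T24, -0.45 to 5637 and -0.6 to CLS-439, and for chromosome 4 it was -0.24, -0.16 and -1.04 to the same lines. Chromosome 18 had 43.7% called lower, with medians of 0 to T24, -0.11 to 5637 and -0.94 to CLS-439. No DNA was measured in these files, and copy number was not tested. Genes named above lie on the chromosomes that lean both ways: COL1A2 and CD36 on 7, DCN, LUM and A2M on 12, and COL3A1, COL5A2 and IGFBP5, all higher, on chromosome 2.

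**Figure D5:**
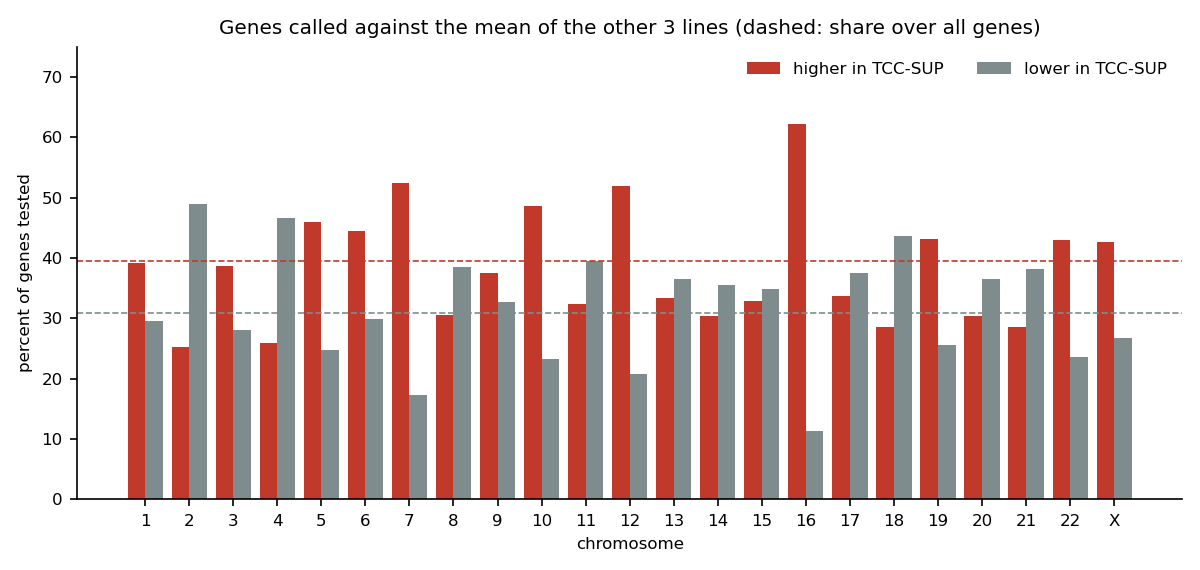
Percent of the genes tested on each chromosome that were called higher (red) or lower (grey) in TCC-SUP than in the mean of T24, 5637 and CLS-439, with dashed lines at the shares over all genes. Chromosome 16 has the tallest red bar, 62.2%, and chromosome 2 the tallest grey bar, 48.9%.

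The MMC-treated libraries of the same lines gave a repeat of the comparison in cells given the drug. They are other libraries of the same 4 lines, so they do not add lines. Of 20820 genes tested there, 7163 (34.4%) were higher and 5301 (25.5%) lower in treated TCC-SUP than in the mean of the other treated lines. Without CLS-439 these counts were 5550 and 4567. Of the 7706 genes called higher untreated and also tested here, 6208 (80.6%) were called higher again and 44 were called lower. Of the 6021 called lower untreated, 4391 (72.9%) were called lower again and 16 were called higher. By the stricter count 2490 genes (12%) were higher and 1447 (6.95%) lower than every other treated line. Of the 3373 genes higher than every other line untreated and tested here, 2121 (62.9%) were so again, and of the 2098 lower, 1129 (53.8%) were so again.

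The 6 markers again had their reads in TCC-SUP. COL1A2 had 2230, 2110 and 1480 CPM in treated TCC-SUP, against at most 0.162 CPM in the 9 treated libraries of the other lines. CD36 had 441, 435 and 547 CPM in treated TCC-SUP and DCN 311, 262 and 198 CPM, against at most 0.0446 and 0 CPM in the other treated lines. Within TCC-SUP, edgeR called 11.1% of the 20820 genes lower in treated than in untreated cells. COL1A2 was among them with a log2 difference of -1.09 (SE 0.2, adjusted p = 0.00052), as were CD36 with -0.84 (SE 0.177, adjusted p = 0.00264) and A2M with -0.64 (SE 0.182, adjusted p = 0.0133). LUM, DCN and VCAM1 did not pass the edgeR test, with log2 differences of -0.39, -0.14 and -0.53 and adjusted p of 0.33, 0.772 and 0.104. This fit had 1 mean per group and did not pair treated with untreated libraries of the same replicate number. The difference of the whole comparison between treated and untreated libraries was called in 245 of 20820 genes (1.18%).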

How the data were processed

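The deposited table holds the authors' raw read counts per Ensembl gene, without normalization. STAR 2.5.3a, featureCounts 1.6.2 and GRCh38 are named per the submitters' processing notes. Which annotation, strand setting and treatment of multi-mapping reads they used is not given in the sources used here. Symbols, coordinates and exon lengths come from GENCODE 29 (58216 of 58381 IDs matched). The 12 untreated libraries were fitted with edgeR 4.0.16 (R 4.3.3): filterByExpr by group kept 19523 genes with 99.93% of the reads, TMM scaling, robust quasi-likelihood with 1 mean per group and 8 residual degrees of freedom. TCC-SUP was tested against the equally weighted mean of the 3 other lines and against each of them, at a Benjamini-Hochberg adjusted p under 0.05. Treated libraries were tested in 1 fit of all 24. SE belongs to log2 differences, SD to CPM over 3 libraries. Replicates differed beyond sampling noise (lowest chi-square per gene 3.99), so none was counted as a repeat deposit. The fit was tested on simulated data.

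Libraries enter by their labels; the comparison, its markers and the 46 gene lists were chosen with earlier results of these data known, so their counts are descriptions; 2 list members enter the counts and are not reported here by name. Besides list members and the 6 markers, named genes are the 15 largest differences each way from the nearest line and the 10 highest genes per exon length. Those 15 were taken among protein-coding genes called against all lines without overlap at 10 CPM or more. Genes with clone, orf, FAM, KIAA or LOC names were left out of that ranking. Promoters (250 bases upstream of the first listed start, 27305 symbols) are from RefSeq, GRCh38.p14, a patch release of the build in the processing notes; genes without an entry are only named. A match is a description, not a binding site. Intervals and floors (3 counts over a group) cover counting error only. Alternatives were DESeq2 1.42.0, other scalings and filters, a replicate block, a fit of all libraries, and leaving out each library or line.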

Additional observations from a re-analysis of the deposited data

Results flagged for a closer look

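For 12 of 161 named genes, the difference between TCC-SUP and the mean of the other lines was not the same in MMC-treated and untreated libraries, by a test of that difference itself in the edgeR fit of all 24 libraries. That test was called in 1.18% of all genes. The named genes were chosen in part by their untreated difference, which is also the value subtracted. Their share and the direction most of them take therefore cannot be set against those of all genes. The values below are log2 of the treated comparison minus the untreated one.

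For 11 of them the value was negative. Among matrix genes it was -1.31 for COL1A1 (SE 0.236, adjusted p = 0.00474) and -0.74 for the fibronectin receptor chain ITGA5. COL1A1 averaged 2400 and 4300 CPM in treated and untreated TCC-SUP, 3.23 and 1.73 CPM in T24, 66.4 and 28.6 CPM in 5637 and 1060 and 1700 CPM in CLS-439. It was thus lower after treatment in TCC-SUP and CLS-439 and higher in T24 and 5637. Among inflammatory genes it was -1.07 for CSF1 and -1.33 for the adhesion receptor ICAM1. ICAM1 averaged 143 and 88.6 CPM in treated and untreated TCC-SUP, 124 and 13.9 CPM in T24, 83.7 and 20.6 CPM in 5637 and 12.1 and 6.62 CPM in CLS-439.

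Among genes that act on oxidants or pump drugs out it was -1.42 for AKR1C1, -1.29 for TXNRD1, -0.93 for ABCC3 and -1.74 for heme oxygenase HMOX1. TXNRD1 averaged 788 and 1570 CPM in treated and untreated TCC-SUP, 774 and 679 CPM in T24, 404 and 311 CPM in 5637 and 405 and 323 CPM in CLS-439. Among growth and cell cycle genes it was -0.79 for FGFR1, -0.85 for VEGFA and -1.94 for the CDK inhibitor CDKN2B. CDKN2B averaged 64.6 and 74 CPM in treated and untreated TCC-SUP, 19.2 and 3.32 CPM in T24, 56.9 and 9.75 CPM in 5637 and 29.4 and 26.1 CPM in CLS-439, so that it moved most in T24 and 5637. The positive one was HBEGF, at 1.6, which averaged 114 and 15.9 CPM in treated and untreated TCC-SUP, 371 and 119 CPM in T24, 576 and 220 CPM in 5637 and 135 and 85.6 CPM in CLS-439.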

How the results depend on the processing

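Without the filter on low counts, 7182 genes were at least 2-fold higher than the mean of the lines, against 4751 with it. The share of chromosome 16 genes called higher was then 41.5%, against 62.2%, over more genes tested. It was 51.4% with DESeq2, 54.4% without 5637 and 66.2% without T24. Shares over all genes were not counted without the filter or with DESeq2, so those 2 values have no background to stand against. Genes lower than every other line numbered 2098, 3300 without T24 and 3320 without CLS-439, where fewer lines have to be passed. List members lower than every other line numbered 89, 157 without T24 and 140 without CLS-439. As a ratio of mean CPM, CDH1 was -0.39 on the log2 scale. Over 161 genes, 3702 of 3703 values, all but that one, kept direction and, where there was a test, the side of the threshold. The ratio of mean CPM, 161 of these values, has no test and was compared by direction alone. These genes were named with their values in the same libraries known, so the count does not extend to other genes. Only 13 of the 46 lists were followed through these settings. For them, 548 of 572 counts stayed within 1.5 times, where a count that stayed at 0 is among the 548.

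Leaving out 1 library gave 7399 to 7984 genes higher and 5481 to 6085 lower than the mean, 4762 to 5018 and 2460 to 2690 at 2-fold, and 3163 to 3498 higher and 1834 to 2100 lower than every other line. It gave 270 to 286 and 82 to 90 list members, 58.5 to 62.1% for chromosome 16, and 6908 to 7737 and 4441 to 5287 genes in treated libraries. DESeq2 called 3227 genes higher and 2021 lower than every other line. Deviations of TCC-SUP libraries correlated at -0.15 to 0.19 with those of same-numbered libraries of the other lines. The other lines were not compared with each other, so whether the numbers pair libraries was not settled. With a replicate block, 3428 genes were higher and 2124 lower than every other line. Each group has 3 libraries of 1 line, and genes with few reads limit the ratios given as bounds.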

Other observations

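Noncoding genes were outside the comparisons of the report, and those below were picked after their values had been seen. FENDRR, a long noncoding RNA beside FOXF1 on chromosome 16, had 58.9, 49 and 53.8 CPM in TCC-SUP, against 3 reads in the 9 untreated libraries of the other lines. LINC01444 on chromosome 18 had 17.2, 22.8 and 20.2 CPM in TCC-SUP and 0 reads elsewhere, at least 1360-fold higher against a floor of 3 counts over the group. LINC02241 on chromosome 5 had 15.3, 10.9 and 12.3 CPM in TCC-SUP and 0 reads elsewhere, at least 868-fold higher. MIAT had 40.8, 23.5 and 29.8 CPM in TCC-SUP, against means of 0.375 CPM in T24, 0.231 CPM in 5637 and 0.0449 CPM in CLS-439.

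Interferon genes themselves were close to 0, and were also looked at after the interferon-stimulated genes. IFNB1 had 2, 1 and 4 reads in TCC-SUP replicates 1, 3 and 4, and 1 read in the 9 other untreated libraries together. IFNL1 had 2, 2 and 4 reads in TCC-SUP, and 3 reads in the 9 others. In both genes replicate 4, the library with the highest sum of interferon-stimulated genes, had the most reads, at counts too low to rank libraries.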
